A study of Caenorhabditis elegans with 18 samples.

Results

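RNAs crosslinked to FBF-2 were compared between spermatogenic and oogenic adult germlines of Caenorhabditis elegans. The 6 FBF-2 iCLIP libraries, 3 biological replicates from spermatogenic and 3 from oogenic germlines, were taken out of a series of 18 libraries that also holds FBF-1 libraries and controls made without FLAG antibody. For iCLIP, living animals are exposed to UV light to join RNA to protein, the tagged protein is purified and the attached RNA fragments are sequenced. A read count therefore depends on the abundance of the RNA as well as on how often it is bound. Spermatogenic animals came from a strain with fbf-2(q738), the single-copy transgene qSi75[3xflag::fbf-2] II and the gain-of-function, temperature-sensitive allele fem-3(q22 ts,gf), listed over the balancer nT1[qIs51](IV;V). Oogenic animals carried fbf-2(q738) and the same transgene. Every animal was an early adult XX hermaphrodite raised at 25° from the first larval stage, so the soma was that of a hermaphrodite in both genders and the germline made sperm in one and oocytes in the other. The endogenous fbf-2 gene is deleted in both strains, and all fbf-2 reads come from the transgene. Of 26709 genes counted, 20047 had a read in at least 1 of the 6 libraries and 4808 averaged 20 counts or more across them. These 4808 RNAs were compared.

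FBF-2 is a PUF-family RNA-binding protein that acts with its close relative FBF-1. Both bind the FBF binding element, a short UGU-containing motif, mostly in 3′UTRs, and repress or destabilise the RNAs they bind. FBF keeps germline stem cells in their undifferentiated state by holding down RNAs for meiotic entry, and it also acts in the switch between sperm and oocyte production.

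The FBF-2 libraries held 673361, 1133534 and 884795 counts on genes from spermatogenic germlines, against 510852, 227790 and 441192 from oogenic germlines. Across the 4808 RNAs, libraries of one gender correlated at Spearman rho 0.948 to 0.972 among spermatogenic and 0.914 to 0.944 among oogenic germlines, and at 0.753 to 0.826 between genders, as a description across RNAs that are not independent. Reads on rRNA took 12.9% to 15.4% of counts in spermatogenic libraries, against 29.4% to 34.4% in oogenic libraries. Lane and gender cannot be told apart among the FBF-2 libraries, since lane 1 held the spermatogenic and lane 2 the oogenic ones. Of the controls, the spermatogenic libraries came from lane 3 and the oogenic libraries from lane 1. Levels are given in RPM, reads on an RNA relative to the size of its library after TMM scaling, and a count of 3 corresponds to 2.14 to 3.71 RPM in spermatogenic and 6.73 to 16.9 RPM in oogenic libraries. Summed marker levels went with the gender on the labels. All 58 sperm markers together had 2627 to 3055 RPM in spermatogenic libraries against 191 to 242 RPM in oogenic libraries, and 8 of the 58 were at 0 in every oogenic library. The 12 oocyte markers summed to 2636 to 2968 RPM in spermatogenic germlines against 8000 to 8595 RPM in oogenic germlines. Markers of the germline of either gender summed to 1814 to 2057 RPM against 2244 to 2366 RPM, and muscle markers to 4785 to 6097 RPM against 5263 to 6370 RPM. Intestine markers, mostly yolk protein RNAs, summed to 5387 to 7343 RPM in spermatogenic and 10961 to 11826 RPM in oogenic libraries, and hypodermis markers to 9319 to 13250 RPM and 12853 to 15585 RPM. In these whole-animal libraries, fewer cells of a type and less RNA per cell cannot be told apart.

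Of the 4808 RNAs, 282 (5.87%) had more FBF-2 reads in spermatogenic germlines and 272 (5.66%) had more in oogenic germlines, by edgeR's quasi-likelihood test (p adjusted after Benjamini and Hochberg and under 0.01, log2 fold change beyond 1). Together these were 554 RNAs, or 11.5%. The 2 sets of calls differed in size of effect. The median log2 fold change was 3.31 for RNAs called in spermatogenic germlines (2.99 with the 12 RNAs that had 0 counts in all oogenic libraries set at their lower bound), and −1.47 for RNAs called in oogenic germlines, against 0.01 over all 4808. They also differed in level. The median of the mean RPM was 63.8 in spermatogenic germlines for the RNAs called there, and 198 in oogenic germlines for the RNAs called there. The libraries of the genders did not overlap for 551 of the 554 called RNAs and for 2235 (46.5%) of all RNAs tested. Most RNAs called in spermatogenic germlines, 259 of 282, had a mean under 20 counts in oogenic libraries and passed the count minimum through the deeper spermatogenic libraries. Of the 272 called in oogenic germlines, 16 had a mean under 20 in spermatogenic libraries. Among all 4808 RNAs, 1904 passed through the spermatogenic libraries alone, against 17 through the oogenic libraries alone. The count minimum and depth thus largely set the size of effect and level of the spermatogenic calls, which are given as a description. The balance of the calls depended on depth, on the count minimum and on scaling. In libraries thinned to the smallest, 47 RNAs were called in spermatogenic against 132 in oogenic germlines. At a mean of at least 100 counts, 35 were called against 91. With scaling to library size alone, the median of all RNAs moved to 0.53, and 909 RNAs were called in spermatogenic against 117 in oogenic germlines, so that 88.6% of the calls were spermatogenic, against 50.9% with TMM scaling.

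**Figure D1:**
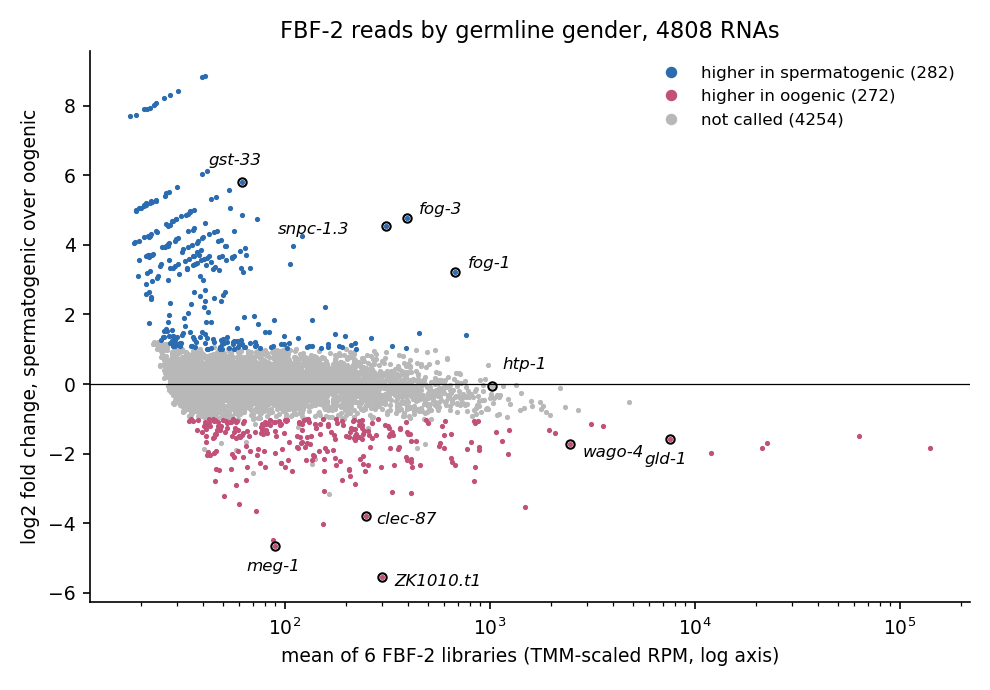
Each point is 1 of 4808 RNAs, with the mean of the 6 FBF-2 libraries (TMM-scaled RPM, log axis) on the x axis and the log2 fold change, spermatogenic over oogenic, on the y axis; blue points were called higher in spermatogenic germlines (282), pink points higher in oogenic germlines (272) and grey points were not called. The spermatogenic calls lie farther from 0 than the oogenic calls, fog-1 (3.22), snpc-1.3 (4.55) and fog-3 (4.77) combine a large difference with a high level, gld-1 is the protein-coding pink point farthest to the right, and the 12 RNAs above 7 have 0 counts in every oogenic library, so that their height is a fitted value and not a bound. The distance of the spermatogenic calls from 0 is largely set by the count minimum and by depth.

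RNAs that direct spermatogenesis carried more FBF-2 reads in spermatogenic germlines, and fog-1, fog-3 and snpc-1.3 combined a large difference with a high level. Of 8 such regulators listed, 7 were tested and all 7 were higher in spermatogenic germlines, with a median log2 fold change of 4.42. Of these, fog-3, snpc-1.3, spe-44, alg-3 and alg-4 averaged under 20 counts in oogenic libraries and passed the count minimum through the spermatogenic libraries. The count of 7 and the median are thus largely set by the filter and are given as a description. fog-1, which encodes a CPEB-family protein needed to specify sperm, lies on chromosome I from 3211046 to 3217267 on the plus strand (WBcel235, Ensembl 115). It had 1310, 1073 and 1322 RPM in spermatogenic germlines, against 137, 84.3 and 154 RPM in oogenic germlines. The groups were far apart, and the log2 fold change was 3.22 ± 0.17 (SE, n = 3 each, edgeR adjusted p = 5e-16). fog-3, on chromosome I from 10016765 to 10018121, encodes a Tob/BTG-family protein with the same role. It had 866, 651 and 784 RPM in spermatogenic germlines, against 44.9, 5.62 and 18.9 RPM in oogenic germlines. The log2 fold change was 4.77 ± 0.25 (edgeR adjusted p = 9e-14). snpc-1.3 encodes a factor for transcription of piRNAs in the male germline and overlaps acl-6 on the other strand, so its reads cannot be told apart from those of acl-6 without the strand of the counts. It had 639, 521 and 638 RPM in spermatogenic germlines, against 18, 39.4 and 27 RPM in oogenic germlines, for a log2 fold change of 4.55 ± 0.21 (edgeR adjusted p = 3.9e-17).

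cpb-1 encodes another CPEB-family protein, which acts in the progression of spermatogenesis, and lies on chromosome III from 9322310 to 9324913. It had 1218, 1012 and 1148 RPM in spermatogenic germlines, against 489, 298 and 438 RPM in oogenic germlines. Every spermatogenic library was above every oogenic library, and the log2 fold change was 1.41 ± 0.14 (edgeR adjusted p = 1.9e-09). spe-44, which encodes a transcription factor for spermatogenesis genes, had 66.7, 66.4 and 65.2 RPM against 13.5, 16.9 and 13.5 RPM, for a log2 fold change of 2.21 ± 0.32 (edgeR adjusted p = 1e-06). alg-3 and alg-4 encode near-identical Argonautes that act with small RNAs in spermatogenesis, and reads shared between the copies may have been lost. alg-3 had 61.8, 68.6 and 72.9 RPM in spermatogenic germlines against 1 count in each oogenic library. The ratio was 22.6 (95% counting interval 7.64 to 110). alg-4 had 56.8, 80.7 and 72.9 RPM in spermatogenic germlines against 3 counts over the oogenic libraries, a ratio of 23.9 (8.09 to 117). cpb-2, the eighth regulator, was left out by the count minimum, with 20, 41 and 33 counts in spermatogenic libraries against 1 in each oogenic library and a ratio of 9.57 (3.18 to 47.3). These intervals cover counting error alone.

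**Figure D2:**
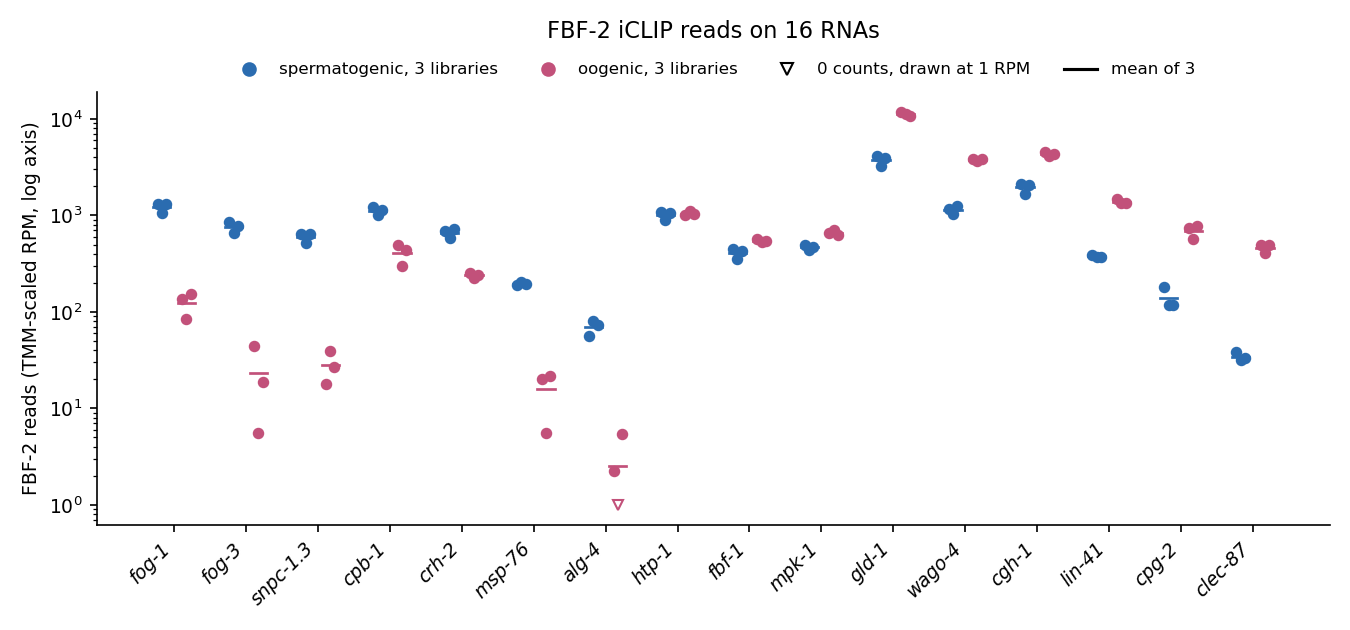
FBF-2 reads on 16 RNAs (TMM-scaled RPM, log axis), with 3 spermatogenic libraries in blue, 3 oogenic libraries in pink, a line at each mean and open triangles for libraries with 0 counts. fog-1, fog-3, snpc-1.3, cpb-1, crh-2, msp-76 and alg-4 are higher in every spermatogenic library than in any oogenic library, gld-1, wago-4, cgh-1, lin-41, cpg-2 and clec-87 are lower in every spermatogenic library, and the libraries of htp-1 overlap between genders.

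Of the regulators called in spermatogenic germlines, some stood above the no-antibody control of their own gender and some did not. The controls were scaled to their counts without rRNA, tRNA and mitochondrial RNA, and an RNA was called above them at an adjusted p under 0.01 and a log2 fold change over 1. In spermatogenic germlines 1453 of 4657 RNAs (31.2%) passed, and in oogenic germlines 824 (17.7%), while 597 (12.8%) and 396 (8.5%) were lower than the control. With FBF-2 in spermatogenic germlines fog-1 was 4.27 above its control on the log2 scale, fog-3 4.85, snpc-1.3 4.49 and cpb-1 3.84 (edgeR adjusted p between 2.1e-33 and 1.44e-25), although the controls behind these values held 17 counts on fog-1, 7 on fog-3, 7 on snpc-1.3 and 21 on cpb-1. In oogenic germlines fog-1 stood 4.46, fog-3 3.15 and cpb-1 3.51 above the control (edgeR adjusted p of 1.74e-10, 0.00945 and 4.42e-19). The oogenic controls held 2 counts on fog-1, 1 on fog-3 and 13 on cpb-1, so the first 2 values rest on very few control counts, and fog-3 passed just under the threshold. Over the oogenic control, snpc-1.3 did not pass. alg-3 was at −0.76 and spe-44 at 0.14 over the spermatogenic control, and neither passed. alg-4 was at −1.22 (edgeR adjusted p = 0.000163) and thus lower than that control.

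RNAs that build sperm differed as much between genders, but few of them exceeded the control. Major sperm protein (MSP) genes encode the cytoskeletal and signalling protein of nematode sperm and are near-identical copies of each other, so single values are uncertain. Of 47 members, 28 passed the count minimum and all 28 were called in spermatogenic germlines, with log2 fold changes from 2.31 to 5.38 and a median of 3.94. These 28 had means under 20 counts in oogenic libraries and passed the minimum through the spermatogenic libraries, as did most tested RNAs in the other lists of sperm genes, so these counts and medians are largely set by the filter and are given as a description. msp-76 had 190, 205 and 195 RPM in spermatogenic germlines, against 20.2, 5.62 and 21.6 RPM in oogenic germlines. The difference was 3.44 ± 0.24 on the log2 scale (edgeR adjusted p = 4.5e-13). In the controls, all 18 MSP RNAs that could be tested were also higher in spermatogenic germlines. msp-76 had 310 ± 47 RPM (SD, n = 3) in the spermatogenic control, and its FBF-2 level stood at −0.15 to that control on the log2 scale. Over the 28, the median was −0.63, against 0.67 over all RNAs, and 3 of the 28 were called above the control. One of them was msp-53 at 3.01, with 4 control counts. The list of sperm formation and function, which holds genes for membranous organelles, motility and sperm phosphatases, had 12 of 32 members tested and 11 called in spermatogenic germlines, with a median of 3.37. Examples were smz-1 at 4.55, gsp-3, a sperm phosphatase, at 3.92, and fer-1, which acts in organelle fusion, at 3.39. ssq-4, whose copies ssq-1, ssq-2 and ssq-3 were called as well, was at 3.91 and overlaps T28H11.7. The member not called was spe-39, which encodes a membrane-trafficking protein used also outside sperm, at 0.28 ± 0.18 (95% interval −0.08 to 0.65). In this list 1 RNA was called above the spermatogenic control.

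**Figure D3:**
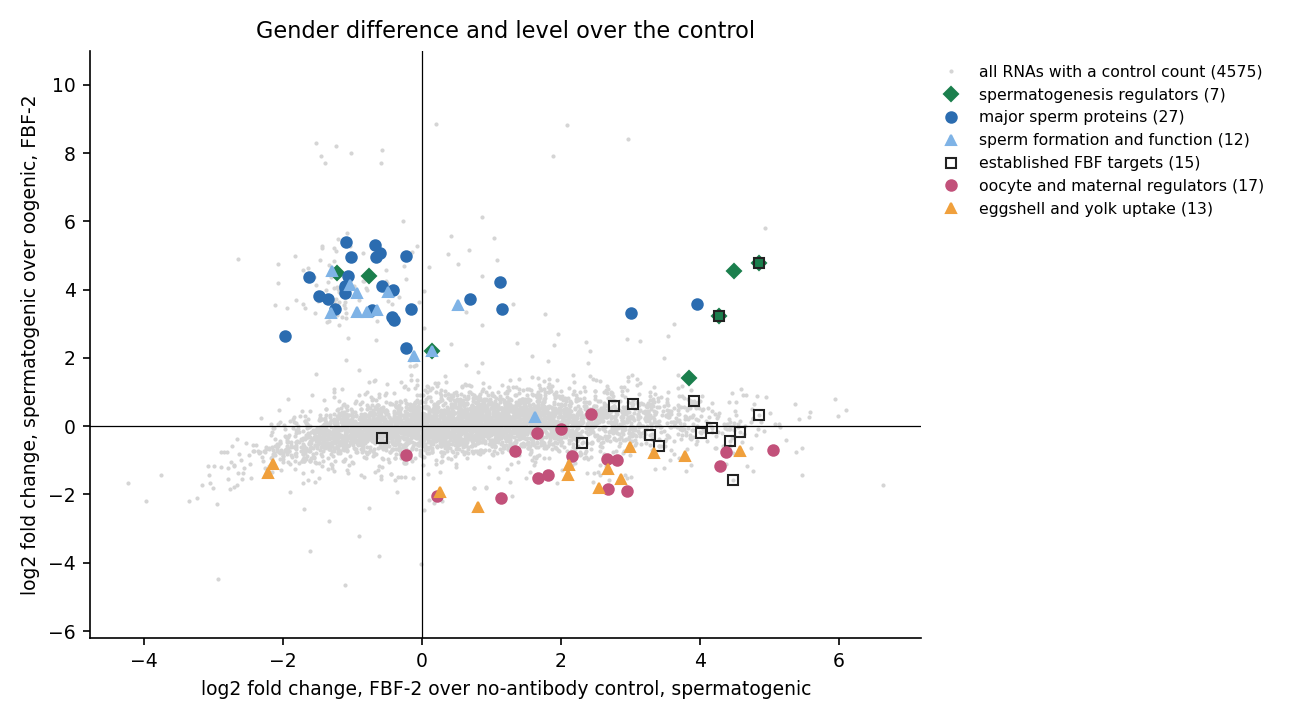
Each point is 1 of 4575 RNAs with a count in the spermatogenic control, with the log2 fold change of FBF-2 over the no-antibody control in spermatogenic germlines on the x axis and the log2 fold change, spermatogenic over oogenic with FBF-2, on the y axis; coloured symbols mark 6 gene lists. The spermatogenesis regulators fog-1 (4.27 on the x axis), fog-3, snpc-1.3 and cpb-1 lie at the right above 0 on the y axis, while spe-44, alg-3 and alg-4 lie near or left of 0 on the x axis, most major sperm protein RNAs lie at upper left or near 0 on the x axis, and eggshell RNAs lie below 0 on the y axis.

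The same split held over all calls. Of the 279 RNAs called in spermatogenic germlines that could be set against the controls, 18 exceeded the control in each gender, 61 did so only in spermatogenic germlines and 200 in neither. The share above the spermatogenic control was 28.3%, against 31.6% of the 4197 RNAs that were not called. Of 181 RNAs called in oogenic germlines, 24 exceeded the control in each gender, 24 only in spermatogenic germlines, 4 only in oogenic germlines and 129 in neither, so that 15.5% were above the oogenic control, against 18.5% of those not called. The controls themselves differed by gender for 408 of 3137 RNAs (13.0%), 197 (6.28%) being higher in the spermatogenic and 211 (6.73%) in the oogenic control. Of the 282 RNAs called with FBF-2 in spermatogenic germlines, 117 could be tested in the controls. There 85 were called in the same and 3 in the opposite direction, with a median control log2 fold change of 4.13. Of the 272 called with FBF-2 in oogenic germlines, 248 could be tested, and 113 were called in the same and 17 in the opposite direction. Their median was −1.13, and 77 of the 248 were above 0 in the controls. The gender difference with FBF-2 differed from that of the controls for 210 of 4657 RNAs (4.51%), by the interaction of antibody and gender at an adjusted p under 0.01 (109, or 2.34%, above 0 and 101, or 2.17%, below 0), and for 127 without replicate 3 of the spermatogenic control. This interaction used library-size scaling, and its median over all 4365 protein-coding RNAs was 0.35, so its values are not centred on 0. They also do not equal differences of the TMM-scaled values. Among the 210 RNAs was crh-2, which encodes a CREB-family transcription factor. It had 687, 590 and 719 RPM in spermatogenic germlines, against 251, 225 and 240 RPM in oogenic germlines. Its log2 fold change was 1.46 ± 0.14 with FBF-2 (edgeR adjusted p = 2.7e-10), and the interaction was 1.50 (edgeR adjusted p = 0.0036). set-2, which encodes a histone H3 methyltransferase, was the only one of 9 germline chromatin regulators called (list median −0.02), with 561, 506 and 512 RPM against 290, 225 and 246 RPM and a log2 fold change of 1.02 ± 0.13 (edgeR adjusted p = 1.6e-07). Its value lay at the edge of the fold minimum, and it was not called when rRNA, tRNA and mitochondrial genes were left out.

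The study's own list of RNAs bound in spermatogenic germlines was drawn up with these libraries and is not independent evidence of direction. Of its 29 members, 20 were tested and all 20 were called in spermatogenic germlines, with a median log2 fold change of 4.97 (4.47 with RNAs at 0 in oogenic libraries set at their bound). Over all RNAs, 5.87% were called in that direction. Most of the 20 passed the count minimum through the spermatogenic libraries, so this count and median are largely set by the filter and are given as a description. The 20 included moa-1 at 4.39 and glo-4, which encodes an exchange factor for gut granules, at 1.95. The protein-coding RNAs of unassigned function with the widest gap between genders were C04G2.9 at 4.86, F21F3.3 at 4.74 and ZK484.5 at 4.24. C04G2.9 had 114, 130 and 120 RPM against 4.49, 0 and 5.4 RPM, and at −1.46 to the spermatogenic control it was below that control.

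The 15 RNAs established as FBF targets changed less than the sperm RNAs. fog-1 and fog-3 were higher in spermatogenic germlines, gld-1 was higher in oogenic germlines, and 12 were not called. The median over the 15 was −0.17, against 0.01 for all RNAs, and it moved to 0.35 with library-size scaling. Except for egl-4, which encodes a cGMP-dependent protein kinase, each of the 15 stood above the control in each gender. The medians over the control were 4.01 in spermatogenic and 3.15 in oogenic germlines, against 0.67 and 0.22 over all RNAs. gld-1 encodes a STAR-family RNA-binding protein that promotes meiotic entry and oocyte development, and it lies on chromosome I from 7695681 to 7698222. It had 4177, 3240 and 3980 RPM in spermatogenic germlines, against 11814, 11351 and 10751 RPM in oogenic germlines. Every oogenic library was above every spermatogenic library, and the log2 fold change was −1.57 ± 0.15 (edgeR adjusted p = 2.7e-10). gld-1 stood 4.48 and 4.35 above the controls in spermatogenic and oogenic germlines. In the controls alone its gender difference was −1.53. The interaction of antibody and gender was 0.13 (edgeR adjusted p = 0.84), against a median of 0.35 over all protein-coding RNAs.

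htp-1, which encodes a HORMA-domain protein of the meiotic chromosome axis, carried as many reads in spermatogenic as in oogenic germlines within the spread of the libraries. It had 1091, 892 and 1050 RPM in spermatogenic germlines, against 1008, 1108 and 1026 RPM in oogenic germlines. The groups overlapped, and the log2 fold change was −0.05 ± 0.13 (95% interval −0.30 to 0.21), with the sign turning positive under 8 of the alternative settings. Its close copy htp-2 was at −0.20, him-3, an axis protein that overlaps prkl-1, at 0.32, and the synaptonemal complex genes syp-2 and syp-3 at 0.73 and 0.65, the second overlapping mrt-1. All 11 members of the axis and synaptonemal complex list (median 0.16) were above the control in both genders. None of the 11 was called by edgeR or by DESeq2, and at an unadjusted p under 0.05 5 were higher in spermatogenic against 1 in oogenic germlines. Over all 4808 RNAs, 1020 and 1029 passed that cut.

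FBF targets that act in stem cells and signalling differed by less than the fold minimum. The libraries of the genders did not overlap for 13 of the 15 established targets, against 46.5% of all RNAs. fbf-1 was at −0.42 (edgeR adjusted p = 0.0094) and overlaps H12I13.6, and fbf-2, read from the transgene, was at −0.17. mpk-1, the ERK kinase of the germline, was at −0.50 and lip-1, a phosphatase that opposes it, at −0.57. gld-3, a cofactor of poly(A) polymerase, was at 0.59. Each of fbf-1, mpk-1 and lip-1 stayed under the fold minimum, and under library-size scaling fbf-1, fbf-2 and mpk-1 changed sign (0.11, 0.36 and 0.03). egl-4 had 284, 256 and 277 RPM against 330, 365 and 348 RPM, for a log2 fold change of −0.34, and stood at −0.57 to the spermatogenic and −0.49 to the oogenic control. fem-3, which promotes spermatogenesis and is repressed by FBF, had 97.6, 118 and 114 RPM in spermatogenic germlines, against 128, 146 and 130 RPM in oogenic germlines. The log2 fold change was −0.25 ± 0.16 (edgeR adjusted p = 0.24). The spermatogenic strain carries a fem-3 allele changed in the 3′UTR near an FBF binding element, so for fem-3 the allele and the gender of the germline cannot be told apart.

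The wider pathways around these targets held few calls. Of 9 sex determination RNAs tested (median 0.26), fog-1 and fog-3 were called, tra-2, which promotes female fate, was at −0.80 and tra-1, the last gene of the pathway, at −0.05. Among 10 stem cell and Notch RNAs, puf-3 was called in oogenic germlines at −1.80 ± 0.17, with 65.5, 52.1 and 55.6 RPM against 186, 163 and 235 RPM, and its reads cannot be told apart from those of afmd-2. lst-1 and sygl-1, the Notch targets that sustain stem cells, were at 0.33 and −0.92, and the Notch receptor gene glp-1 at −0.37. The list's median was −0.41, turning to 0.12 with library-size scaling. Among 8 meiotic entry RNAs (median 0.01), gld-1 was the sole call. gld-2, the poly(A) polymerase partner of gld-3, was at −0.47 and overlaps klu-2, and nos-3 at 0.03. Among 16 cell cycle RNAs (median 0.04), cyb-3 was the sole call. cyb-3, a B-type cyclin, had 98.8, 106 and 118 RPM in spermatogenic germlines, against 332, 343 and 327 RPM in oogenic germlines. Its log2 fold change was −1.62 ± 0.13 (edgeR adjusted p = 9.1e-12). The MPK-1 pathway (8 tested, median −0.11) and the deadenylases (12 tested, median −0.16) held no call by edgeR or DESeq2. At an unadjusted p under 0.05, 2 MPK-1 pathway RNAs were higher in spermatogenic against 3 in oogenic germlines, and for the deadenylases 1 and 4. Of all 4808 RNAs, 1020 and 1029 passed that cut, so these small counts show no leaning of either list.

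RNAs of oocyte development and of the eggshell led the calls in oogenic germlines by function. Of 17 oocyte and maternal regulators tested, 7 were called in oogenic and 0 in spermatogenic germlines, with a median of −0.95. lin-41, which encodes a TRIM-NHL protein needed for oocyte growth, lies on chromosome I from 9334800 to 9342496 on the minus strand. It had 392, 369 and 374 RPM in spermatogenic germlines, against 1488, 1344 and 1351 RPM in oogenic germlines. The libraries within each gender were close, and the log2 fold change was −1.89 ± 0.12 (edgeR adjusted p = 8.9e-14). puf-5, a PUF protein of oocytes, was at −1.84 ± 0.13, with 290, 238 and 269 RPM against 1057, 798 and 959 RPM. Its relative puf-7 was at −1.17. spn-4, a maternal RNA-binding protein gene that overlaps ZC404.15, was at −2.06, pos-1 at −2.11, oma-2 at −1.52 and mex-3 at −1.44. oma-1, the close relative of oma-2, was at −0.21 and was not called. mex-5, the most read member that was not called, changed sign between settings. Of the 17 RNAs, 14 were above the control in spermatogenic and 7 in oogenic germlines. Over all RNAs set against the controls, 31.2% and 17.7% were. In the controls, 13 of the 16 listed RNAs that could be tested were called in oogenic germlines, with a median of −2.22.

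Eggshell and yolk-uptake RNAs gave 9 oogenic calls of 13 tested, with a median of −1.27, and at an unadjusted p under 0.05 all 13 were lower in spermatogenic germlines. Over all 4808 RNAs, 5.66% were called in oogenic germlines, and 1029 passed the unadjusted cut in that direction. cpg-2 encodes an eggshell proteoglycan. It had 180, 119 and 119 RPM in spermatogenic germlines, against 750, 573 and 770 RPM in oogenic germlines, for a log2 fold change of −2.37 ± 0.15 (edgeR adjusted p = 6.9e-13). cpg-1, its relative, was at −1.81, the yolk receptor gene rme-2 at −1.92, egg-1 at −1.56, perm-2 at −1.37, chs-1, the chitin synthase, at −1.27, egg-5 at −1.13 and perm-4 at −1.12. cbd-1 encodes a chitin-binding eggshell protein. It had 369, 329 and 362 RPM in spermatogenic germlines, against 965, 967 and 910 RPM in oogenic germlines, for a log2 fold change of −1.42 ± 0.12 (edgeR adjusted p = 3.9e-11). The cbd-1 difference between the controls was larger, at −3.39, and the interaction was 2.15 (edgeR adjusted p = 6e-08). cbd-1 was 2.10 above the control in spermatogenic germlines and −0.06 to the control in oogenic germlines. With library-size scaling, 4 of the 13 were called. FBF-2 reads here follow RNAs whose control reads differ by gender too, and how much of the difference lies in abundance and how much in binding was not tested.

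Among protein-coding RNAs, several with a wide relative gap toward oogenic germlines were rare in spermatogenic libraries. clec-87, a C-type lectin gene on chromosome I from 10184462 to 10185520, had 38.3, 31.4 and 33.6 RPM in spermatogenic germlines, against 491, 405 and 497 RPM in oogenic germlines. The log2 fold change was −3.79 ± 0.15 (edgeR adjusted p = 3.1e-19), and the gene overlaps iars-2. meg-1, on chromosome X from 13927036 to 13929634, encodes a P granule protein supplied to the embryo. It had 2.47, 6.43 and 10.5 RPM in spermatogenic germlines, against 164, 174 and 184 RPM in oogenic germlines, for a log2 fold change of −4.65 ± 0.27 (edgeR adjusted p = 7e-15). mrp-4, an ABC transporter gene that overlaps F21G4.1, had 18.5, 19.3 and 17.3 RPM against 339, 208 and 321 RPM, for a log2 fold change of −4.02 ± 0.19. cpg-3, which overlaps R06C7.6, was at −3.65 and his-24, a linker histone gene, at −3.21. None of clec-87, meg-1, cpg-3 and his-24 passed the fold minimum over the control in either gender. Over the oogenic control clec-87 stood at 0.22, meg-1 at 0.84, mrp-4 at 0.98, cpg-3 at −0.11 and his-24 at 0.16.

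A further set of RNAs had high FBF-2 levels in both genders and more reads in oogenic germlines. wago-4 encodes an Argonaute that carries inherited small RNA signals in the germline, and it lies on chromosome II from 12919551 to 12923377. It had 1156, 1032 and 1240 RPM in spermatogenic germlines, against 3860, 3688 and 3828 RPM in oogenic germlines. The log2 fold change was −1.73 ± 0.13 (edgeR adjusted p = 3.5e-12), and wago-4 stood 6.64 and 4.36 above the spermatogenic and oogenic controls, the first of which held 3 counts. It was the only oogenic call among 13 Argonautes (median 0.04), next to alg-3 and alg-4 in the other direction. cgh-1, a DDX6-type RNA helicase of P granules, had 2137, 1672 and 2060 RPM against 4531, 4115 and 4303 RPM, for a log2 fold change of −1.14 ± 0.14. ifet-1, an eIF4E-binding repressor of translation, had 1245, 1001 and 1166 RPM against 2926, 3272 and 2926 RPM, for a log2 fold change of −1.42 ± 0.13. cpb-3, a CPEB-family gene, had 1226, 1002 and 1124 RPM against 2720, 2968 and 2639 RPM, for a log2 fold change of −1.31 ± 0.13. With meg-1, cgh-1 and ifet-1 were the 3 calls among 12 P granule and mRNP RNAs, whose median was −0.30 with TMM and 0.22 with library-size scaling; pgl-1, a core P granule component, was at −0.96. The study's list of frequently bound RNAs was also drawn from these libraries. All 21 of its RNAs were above the control in both genders, 5 were called in oogenic and 0 in spermatogenic germlines, and the median was −0.63, which became −0.11 with library-size scaling. car-1 and ima-3, the second overlapping nprl-2, were among the 5 most read protein-coding RNAs that were not called, at −0.80 and −0.90.

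**Figure D4:**
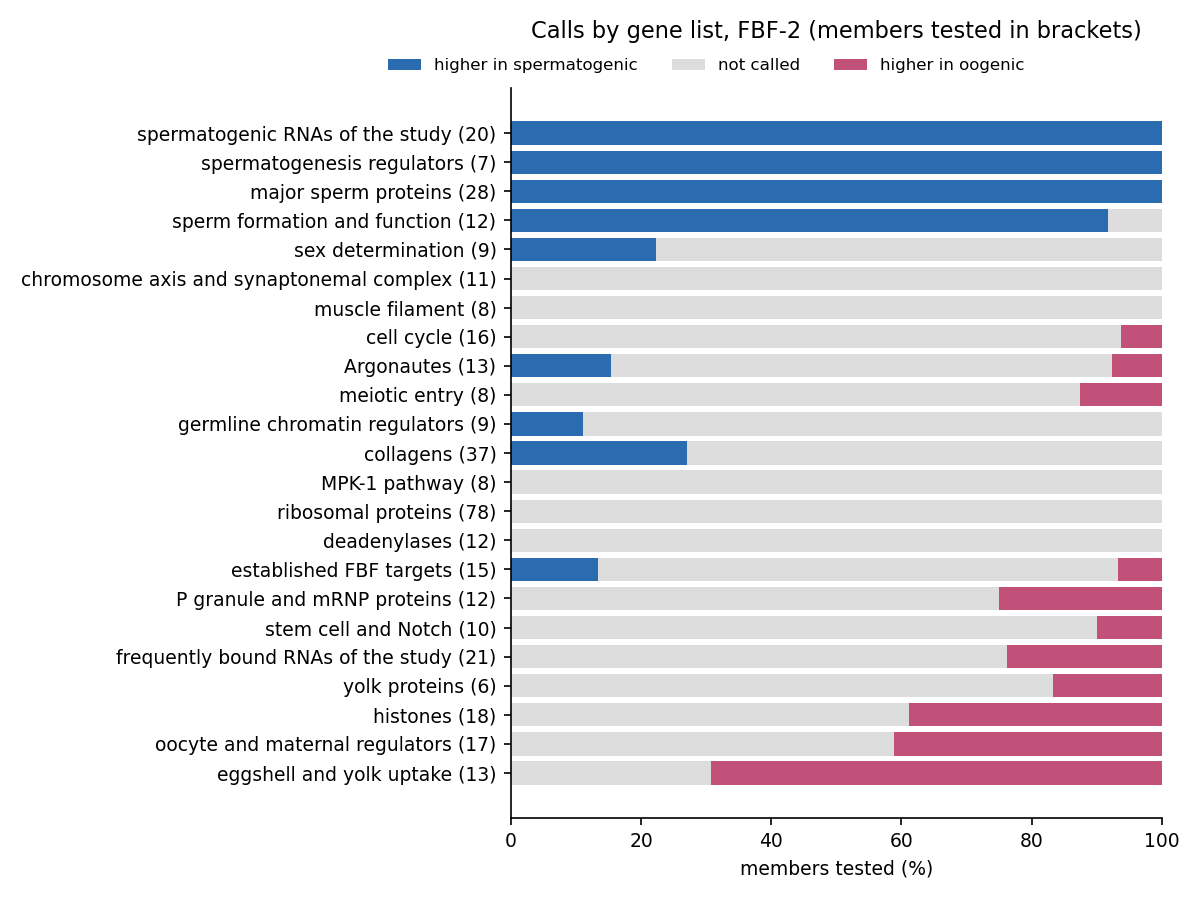
Share of the tested members of each of 23 gene lists (x axis, percent of members tested, number in brackets) called higher in spermatogenic germlines (blue), not called (grey) or called higher in oogenic germlines (pink), with the lists in order of median log2 fold change. All tested members of 3 lists are blue, namely the study's spermatogenic RNAs (20), spermatogenesis regulators (7) and major sperm proteins (28), and the eggshell list has the longest pink bar, 9 of 13. Most tested members of the 3 blue lists passed the count minimum through the spermatogenic libraries, so their bars are largely set by the filter.

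RNAs expressed mainly in the soma, and RNAs of ribosomes and chromatin, differed from list to list. Of 8 muscle filament RNAs (median 0.08) none was called by edgeR or DESeq2 (2 favoured spermatogenic and 1 oogenic germlines at an unadjusted p under 0.05), and none was above the control. unc-54, the body-wall myosin gene, was at −0.10, which turned positive in several settings. Among 6 yolk protein RNAs made by the intestine, vit-4 was called in oogenic germlines at −1.06, with DESeq2 calling none, and at an unadjusted p under 0.05 all 6 were higher in oogenic germlines, with a median of −0.88. vit-6 was at −0.74 and vit-2 at −0.66. Of 78 ribosomal protein RNAs (median −0.14) none was called by edgeR or DESeq2, and at an unadjusted p under 0.05 1 was higher in spermatogenic and 15 in oogenic germlines. Over all 4808 RNAs, 1020 and 1029 passed that cut, so a smaller share of the ribosomal protein RNAs passed it than of all RNAs. Of 37 cuticle collagen RNAs tested out of 155, 10 were called in spermatogenic and 0 in oogenic germlines, while the median was −0.07. Over all RNAs, 5.87% and 5.66% were called in these directions. col-117, with 2, 1 and 7 counts in oogenic libraries, and col-12, with 6, 1 and 8, passed the count minimum through the spermatogenic libraries. The 10 calls are thus partly set by the filter and are given as a description. col-117 was at 2.64, col-12 at 2.54, col-81 at 1.07 and col-129 at 1.02, and col-81 lost its call in 4 and col-129 in 6 of the other settings tried. Against the 10 calls with FBF-2, FBF-1 gave 2 in spermatogenic germlines. Of the 28 collagen RNAs that could be tested in the controls, 7 were called in the opposite direction, higher in oogenic controls. Of 18 histone RNAs tested out of 69, most of them near-identical copies, 7 were called in oogenic germlines, with a median of −0.92, and 1 was called there with library-size scaling. his-45 was at −1.10, his-48 at −1.14, his-56 at −1.19 and his-62 at −1.41.

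Non-coding RNAs took a large part of the oogenic calls. Protein-coding RNAs gave 268 spermatogenic and 129 oogenic calls of 4365 tested. Of 113 nuclear tRNA genes tested, 79 (69.9%) were called in oogenic and 2 in spermatogenic germlines, with a median of −1.86. Over all RNAs, 5.66% and 5.87% were called in these directions. Summed over tRNA genes, the level was 11589, 13141 and 13305 RPM in spermatogenic germlines, against 39032, 47378 and 40262 RPM in oogenic germlines. The most read was ZK783.t1, with 242, 299 and 164 RPM against 2819, 2794 and 2615 RPM, at −3.53, and the most different was ZK1010.t1 with 11.1, 9.29 and 16.3 RPM against 525, 708 and 529 RPM, at −5.55. In the other direction C29F7.t2 had 190, 211 and 219 RPM in spermatogenic germlines, against 4.49, 11.2 and 24.3 RPM in oogenic germlines, at 3.97. The controls were reversed for C29F7.t2, with 0 counts in spermatogenic and 424 in oogenic libraries. Its high values, with FBF-2, with FBF-1 and in the controls, all came from lane 1, and the part of lane was not tested. ZK783.t1 was also reversed in the controls, at 0.75, whereas ZK1010.t1 had 0 counts in spermatogenic and 18 in oogenic controls. tRNA genes have many copies, and reads that fit several copies were removed. Of 17 snRNA genes, 15 (88.2%) were called in oogenic germlines, with a median of −1.39 and summed levels of 1253, 1182 and 1187 RPM against 3117, 4211 and 3152 RPM. snoRNA genes, in contrast, had 9 oogenic and 2 spermatogenic calls of 98 and a median of −0.16. The tRNA and snRNA calls moved with the share of rRNA in the libraries given above, whose part in the result was not tested. With library-size scaling the tRNA median was −1.33 and 57 tRNA genes were called in oogenic germlines.

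The protein-coding calls were spread unevenly over the chromosomes. On the X chromosome 3 of 253 RNAs tested (1.19%) were called in spermatogenic and 22 (8.70%) in oogenic germlines, against 265 (6.44%) and 107 (2.60%) of 4112 on the autosomes. The median log2 fold change was −0.28 on the X chromosome, where 68.8% of RNAs were below 0, and 0.06 on the autosomes, where 45.6% were below 0. With library-size scaling the X median was 0.24, below the median of all RNAs of 0.53. In the controls the X median was 0.05 and in FBF-1 libraries 0.05. Chromosome IV held 81 of the spermatogenic calls among 810 RNAs tested (10%), and msp-76, msp-53, ssq-4 and C04G2.9 are among them. The annotated 3′UTR, where FBF binding elements mostly lie, had a median length of 95 bases for 225 spermatogenic calls with an annotated 3′UTR, 206 bases for 123 oogenic calls and 221 bases for RNAs not called.

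FBF-1 libraries of the same genders gave a second measure of each RNA, from animals of other strains. These strains carried fbf-1(ok91) and the transgene qSi232[3xflag::fbf-1] II, and the spermatogenic one also fem-3(q22 ts,gf) over nT1[qIs51](IV;V). Protein and strain therefore cannot be told apart. The FBF-1 libraries were also split by lane, with spermatogenic ones in lane 1 and oogenic ones in lane 2. The gender difference with FBF-2 differed from that with FBF-1 for 347 of 4808 RNAs (7.22%), by the interaction of protein and gender at an adjusted p under 0.01, 121 (2.52%) above 0 and 226 (4.7%) below 0. Without replicate 3 of the oogenic FBF-1 libraries, or without replicate 3 of the oogenic FBF-2 libraries, the count was 215, and DESeq2 called 102. One of the FBF-1 oogenic libraries held 18749 counts. Of the 282 RNAs called with FBF-2 in spermatogenic germlines, 23 differed from FBF-1, 259 were also above 0 with FBF-1 (against 2240 of all 4808), and the FBF-1 median was 4.21. Of the 272 called in oogenic germlines, 127 differed from FBF-1, and the FBF-1 median was −0.58. tRNA genes accounted for 60 of the 226 RNAs below 0, which was 53.1% of tRNA genes tested, and their FBF-1 median was −0.24 against −1.86 with FBF-2. The rRNA share was 37.8%, 16.9% and 13.2% in the FBF-1 oogenic libraries, against 29.4% to 34.4% in the FBF-2 oogenic libraries, and its part in this was not tested. fog-1 was at 3.22 with FBF-2 and 2.79 with FBF-1 (interaction adjusted p = 0.23), fog-3 at 4.77 and 5.91 (0.12), and gld-1 at −1.57 and −0.96 (0.096), none of which differed beyond the threshold. For wago-4 the difference was −1.73 with FBF-2 and −0.75 with FBF-1 (edgeR interaction −0.98, adjusted p = 0.00056), and for cpb-3 −1.31 and −0.43 (−0.88, adjusted p = 0.0013). fem-3 was at −0.25 with FBF-2 and −1.59 with FBF-1 (1.34, adjusted p = 1.1e-05). With FBF-1, fem-3 had 66.2, 78.4 and 87.3 RPM in spermatogenic germlines, against 160, 259 and 221 RPM in oogenic germlines.

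**Figure D5:**
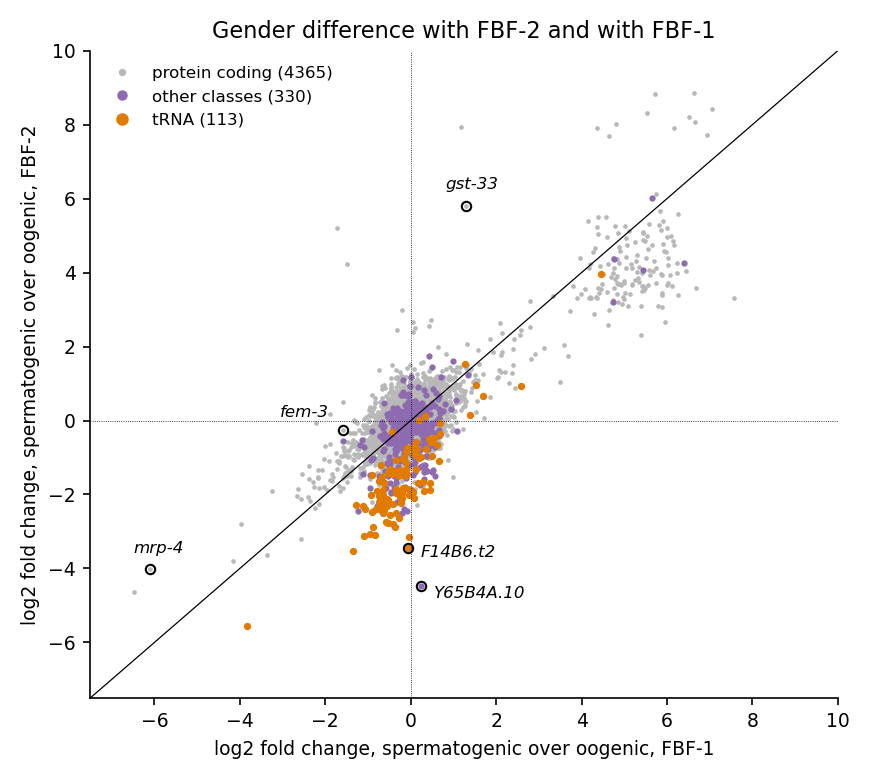
Each point is 1 of 4808 RNAs, with the log2 fold change, spermatogenic over oogenic, in FBF-1 libraries on the x axis and in FBF-2 libraries on the y axis; grey points are protein-coding RNAs (4365), orange points tRNA genes (113), purple points other classes (330), and the line marks equal values. Sperm RNAs lie at upper right, with the major sperm proteins mostly below the line, tRNA genes lie below it with a median of −1.86 with FBF-2 against −0.24 with FBF-1, and gst-33 and fem-3 lie above it.

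gst-33, on chromosome V from 3467451 to 3468562 on the minus strand, stood out among the spermatogenic calls. The gene encodes a glutathione S-transferase. With FBF-2 it had 117, 133 and 115 RPM in spermatogenic germlines, against 2.24, 0 and 2.7 RPM in oogenic germlines, 2 counts in all. The ratio was 61.3 (95% counting interval 16.8 to 508). With FBF-1 gst-33 had 2.72, 0 and 2.13 RPM in spermatogenic germlines and 0, 1.32 and 0.48 RPM in oogenic germlines, and the spermatogenic control held 1 count. The interaction of protein and gender was 4.54 and missed the threshold (edgeR adjusted p = 0.066).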

How the data were processed

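The deposited table holds raw counts, as reads per gene, from 18 iCLIP libraries. Per their methods, reads were split by barcode, linkers were clipped, STAR mapped them by local alignment, reads with several map positions or a score below the authors' minimum were removed, duplicates were collapsed by barcode, and reads were assigned to exons with HTSeq. The submitters' notes also name Novoalign. The genome build, annotation, tool versions and strand setting behind the counts are not given in the sources used here, so genes that overlap are uncertain. Entries for reads on no gene (10.8% to 15.4% of an FBF-2 library) and for ambiguous reads (0.614% to 0.735%) were left out. Of the genes, 22438 were found by name and 3297 by sequence name in Ensembl release 115 (WBcel235), and 974 were not found. Coordinates and 3′UTR lengths come from that annotation.

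RNAs averaging 20 counts or more across the 6 FBF-2 libraries went into edgeR 4.0.16 under R 4.3.3 (with limma 3.58.1), whose robust quasi-likelihood test was used with TMM scaling. A call needed a p under 0.01 after Benjamini-Hochberg adjustment and a log2 fold change beyond 1 in either direction. RNAs with a mean of 19.8 counts were the nearest left out, and 285 had a mean of 18 to under 20. The controls were compared with each other over RNAs averaging 5 counts or more. FBF-2 was set against the controls, and antibody and gender were tested for interaction, with library-size scaling and without rRNA, tRNA and mitochondrial genes. Protein and gender were tested for interaction over the FBF-1 and FBF-2 libraries with TMM scaling. Replicates are biological replicates per the study, and within FBF-2 groups they differed by more than sampling noise. Depth was 227790 to 1133534 counts. Tested on simulated data in which 200 RNAs had a log2 change of 2, the fits recovered 98.5% between genders (4808 genes), 76% between controls (3137 genes), 52% for antibody and gender (4657 genes) and 97% for protein and gender (4808 genes). Ratios of low counts carry exact binomial 95% intervals.

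The alternatives were DESeq2 1.42.0, other scalings, count minimums and thresholds, thinned libraries, all 18 libraries in 1 fit, a block for the replicate number, and leaving out each replicate. Scaling to library size without rRNA, tRNA and mitochondrial genes was added after the data were seen. Named RNAs are, in each direction, the 10 called with the widest gap between libraries and the 5 most read protein-coding RNAs called, the 5 most read protein-coding RNAs not called, the called (at most 4) and the 2 most read members of each of 23 lists, and the 15 established FBF targets. Other members given with a fold change alone, RNAs quoted for a low count or an overlap, crossed values with FBF-1, cpb-2, spe-44, cdr-4, ugt-62, cyp-33C2, gst-5 and gst-44 were named after their values were seen. Comparison, members and lists were chosen with earlier results of these data known. Columns of no sample numbered 0. Other values were computed in Python 3.11.15 (scipy 1.17.1, pandas 2.3.3, numpy 2.4.6) and plotted with matplotlib 3.10.9.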

Additional observations from a re-analysis of the deposited data

Results flagged for a closer look

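For the RNAs named in the report, the gender difference with FBF-2 was tested against that with FBF-1 and against that of the no-antibody controls, each as an interaction on the log2 scale (edgeR, adjusted over all RNAs tested). The cause was not tested for any of them. The interaction with the controls used library-size scaling, and its median over all protein-coding RNAs was 0.35.

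Against FBF-1, the FBF-2 difference was lower for wago-4 (−0.98, adjusted p = 0.00056), cpb-3 (−0.88, adjusted p = 0.0013) and the snoRNA gene Y65B4A.10, which lies inside eif-4A3 (−4.72, adjusted p = 1e-13). Y65B4A.10 had 8.65, 7.86 and 4.79 RPM with FBF-2 in spermatogenic germlines, against 119, 202 and 184 RPM in oogenic germlines. It was higher for fem-3 (1.34, adjusted p = 1.1e-05), for lin-45, the Raf kinase of the MPK-1 pathway (0.81, adjusted p = 0.0017), for puf-5 (0.80, adjusted p = 0.0031), for mrp-4 (2.08, adjusted p = 6.5e-05) and for meg-1 (1.82, adjusted p = 0.0066). mrp-4 and meg-1 were lower in spermatogenic germlines with both proteins, at −4.02 and −4.65 with FBF-2 and −6.11 and −6.47 with FBF-1. Somatic RNAs differed too, namely vit-2 (−0.93, adjusted p = 0.0013), vit-4 (−0.98, adjusted p = 0.0012), vit-6 (−1.04, adjusted p = 0.00062), the muscle gene unc-15 (−0.74, adjusted p = 0.0068) and the collagen genes col-119 (−1.02, adjusted p = 0.00031), col-20 (−0.92, adjusted p = 0.00088) and col-12 (2.12, adjusted p = 0.002). The tRNA genes ZK1010.t1 (−1.72, adjusted p = 0.0012), F56F4.t2 (−2.02, adjusted p = 0.0072) and F14B6.t2 (−3.41, adjusted p = 4.6e-07) were lower with FBF-2.

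Against the controls, the FBF-2 difference was higher for crh-2 (1.50, adjusted p = 0.0036), cgh-1 (0.89, adjusted p = 0.0076), cbd-1 (2.15, adjusted p = 6e-08), mex-5 (1.11, adjusted p = 0.0064) and vit-4 (1.02, adjusted p = 0.00082), and lower for perm-4 (−1.40, adjusted p = 1e-07), vit-6 (−0.96, adjusted p = 2.7e-05) and Y65B4A.10 (−2.31, adjusted p = 0.0039). The collagen genes col-12 (4.92, adjusted p = 1.2e-06), col-117 (9.21, adjusted p = 7.2e-05), col-129 (2.78, adjusted p = 3.9e-14) and col-81 (3.41, adjusted p = 1.3e-11) and the histone genes his-45 (5.24, adjusted p = 1.3e-08), his-48 (4.39, adjusted p = 7.4e-05), his-56 (7.77, adjusted p = 0.00011) and his-74 (2.57, adjusted p = 0.0079) were higher. The spermatogenic control held 0 counts on col-117 and on his-56, 1 on his-45, 1 on his-48, 3 on col-12 and 4 on his-74, so these fitted values are not bounds.

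A few single RNAs were picked from the spermatogenic calls after their values were known. Against FBF-1 the difference was 5.74 for gst-44 (adjusted p = 0.002), 2.25 for gst-5 (adjusted p = 0.0068), 2.61 for cdr-4 (adjusted p = 0.0023) and 2.35 for ugt-62 (adjusted p = 0.0016). Against the controls it was 3.31 for gst-5 (adjusted p = 0.0097) and 5.39 for cdr-4 (adjusted p = 1.6e-06).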

How the results depend on the processing

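Of 63 called RNAs that the text names, 48 kept their call in every setting that gave them a value and 0 changed direction; of 35 named RNAs that were not called, 6 passed the threshold in some setting and 16 changed sign in some setting, and the cause was not tested. The 282 spermatogenic and 272 oogenic calls became 909 and 117 with library-size scaling, 348 and 139 with library-size scaling without rRNA, tRNA and mitochondrial genes (added after the data were seen), 1120 and 582 with no count minimum, 997 and 491 at a mean of at least 5 counts, 35 and 91 at 100 counts, 504 and 598 with no fold minimum, 174 and 65 at a log2 fold change over 2, and 47 and 132 in libraries thinned to the smallest (2187 RNAs tested). DESeq2 gave 285 and 237. Leaving out 1 replicate gave 209 to 332 spermatogenic and 250 to 276 oogenic calls. Replicate numbers do not pair the samples (correlations of deviations 0.12, 0.08 and −0.03) and not every library correlated best with its own number; the replicate block gave 300 and 289 calls, 545 of them shared with the 554. Between controls, 197 spermatogenic calls became 496 at a mean of at least 1 count and 61 at 20 (147 to 220 without 1 replicate), and 211 oogenic calls became 93 at 20 counts and 125 without rRNA, tRNA and mitochondrial genes (145 to 222). The 210 interactions of antibody and gender became 337 with those genes and 122 at 100 counts (127 to 222 without 1 replicate). RNAs above the spermatogenic control, 1453, became 2213 with those genes and 669 at 100 counts (1108 to 1493), and those above the oogenic control, 824, became 1299 and 545 (637 to 835). The 347 interactions of protein and gender became 1206 with library-size scaling, 102 with DESeq2 and 212 at 100 counts (215 to 362 without 1 replicate).

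Signs turned near 0. Library-size scaling, which moves the median of all RNAs to 0.53, gave mex-5 0.44, htp-1 0.48, htp-2 0.33, mpk-1 0.025, gld-2 0.057, fbf-1 0.11, fbf-2 0.36, fem-3 0.27, egl-4 0.18, plk-3 0.28, unc-54 0.43, unc-15 0.22, his-72 0.41, rps-2 0.12 and let-711 0.35. Without rRNA, tRNA and mitochondrial genes in that scaling, mex-5 was at 0.026, htp-1 at 0.065 and unc-54 at 0.011. DESeq2 gave mex-5 0.006 and htp-1 0.045, and upper-quartile scaling gave htp-1 0.028. With no count minimum mex-5 was at 0.031, htp-1 at 0.072 and unc-54 at 0.023, and at 100 counts mex-5 was at 0.007 and htp-1 at 0.043. Thinned, htp-1 was at 0.018, fbf-2 at 0.109, unc-54 at 0.015, let-711 at 0.065 and mes-3 at −0.004. Leaving out 1 replicate, mex-5 ranged over −0.13 to 0.001 and htp-1 over −0.1 to 0.05, both positive without spermatogenic replicate 2, and unc-54 over −0.199 to 0.012, positive without spermatogenic replicate 1.

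Depth limits the oogenic side most, since a count of 3 equals 6.73 to 16.9 RPM there against 2.14 to 3.71 RPM in spermatogenic libraries, and the controls hold few counts on many RNAs. Counts on an RNA combine its abundance and its binding, which cannot be told apart here.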

Other observations

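The following RNAs called in spermatogenic germlines were picked singly after their values were seen, so that they share a kind of enzyme says nothing of that kind as a whole. cdr-4, a cadmium-responsive gene, had 76.6, 95 and 94.9 RPM in spermatogenic germlines, against 11.2, 11.2 and 18.9 RPM in oogenic germlines, for a log2 fold change of 2.66 ± 0.30 with FBF-2 (edgeR adjusted p = 1.5e-08) and 0.05 with FBF-1. ugt-62, a glucuronosyltransferase gene, had 60.5, 72.9 and 73.8 RPM against 11.2, 11.2 and 16.2 RPM, at 2.40 with FBF-2 and 0.05 with FBF-1. The glutathione S-transferase gene gst-5, which overlaps nos-1, had 68, 80 and 70 RPM against 13.5, 0 and 13.5 RPM, at 2.71 with FBF-2 and 0.47 with FBF-1. gst-44, which overlaps srd-63, had 34.6, 38.6 and 48.9 RPM in spermatogenic germlines against 2 counts over the oogenic libraries, a ratio of 20.3 (95% counting interval 5.52 to 170). The cytochrome P450 gene cyp-33C2 had 58.1, 38.6 and 35.5 RPM in spermatogenic germlines and 0 counts in the oogenic libraries. No gene list covered these RNAs.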
